A study of Homo sapiens with 12 samples.

Results

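The histone genes of the large cluster on the short arm of chromosome 6 were examined for SREBP2, RORγ and acetylated histone H3 in HCC70 cells, an established line of triple-negative breast cancer. Members were the protein-coding histone genes that GENCODE places between positions 26000000 and 28000000 of chromosome 6 in hg19, which gave 50 of the 20098 protein-coding genes on chromosomes 1 to 22 and X. They were 6 genes of the linker histone H1, 11 of H2A, 12 of H2B, 10 of H3 and 11 of H4. ChIP-seq had been done with antibodies against SREBP2, the sterol-sensing transcription factor, against the nuclear receptor RORγ, and against H3K27ac, an acetylation found at active promoters and enhancers. For each antibody 1 library came from cells given vehicle and 1 from cells given XY018, an antagonist of RORγ, for 24 h, with a dose of 5 µM in the sample labels and a lower dose in the methods of the study. With 1 library in each of the 6 groups, no difference has a replicate check, no p-value is given, and every interval covers counting error only. The 6 input samples were not used here, and the line of cells was the same in all groups.

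Replication-dependent histone genes are short, have no introns, and are transcribed in bursts when DNA is copied. Their RNAs end in a stem-loop instead of a poly(A) tail. NPAT and its partners gather at the chromosome 6 cluster in a nuclear structure called the histone locus body, and the octamer element, a binding site of the POU factor OCT1, is a known feature of H2B promoters. Neither SREBP2 nor RORγ is a textbook regulator of these genes.

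The members lay in 3 groups. The first held 29 genes at chr6:26017260-26285866, the second 5 genes at chr6:27093676-27115341 and the third 16 genes at chr6:27775257-27861669. In 8 pairs a gene on the minus strand and one on the plus strand started within 1000 bp of each other and pointed apart. In 7 of these pairs an H2A gene faced an H2B gene across 194 to 251 bp, and in the last H3C7 and H2BC9 were 979 bp apart. A deposited region between such a pair counts for both genes, and 24 members shared an H3K27ac region of the vehicle library with another member.

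The promoter sequences are shown because the TATA box, the CCAAT box and the octamer are the known elements of histone promoters. All were read from GRCh37, the same build as hg19, and run 5′ to 3′ on the strand of the named gene, with the searched letters in capitals. The octamer ATTTGCAT, on either strand and within 250 bases before to 50 bases after the start, was present in 18 of 50 members (36%) against 1.58% of all promoters, in 9 of 11 H2A and 9 of 12 H2B genes and in 0 of the H1, H3 and H4 genes. In the pairs that face each other a single octamer could lie in the window of both genes, as for H2BC11 and H2AC11 at chr6:27100603-27100632, whose letters differ only by the strand on which they are read. The site between H2BC4 and H2AC6 is at chr6:26124259-26124288, shown on the minus strand, and that between H2AC14 and H2BC14 at chr6:27782741-27782770, shown on the plus strand.
H2BC11: ctcttcaccttATTTGCATaagcgattcta
H2AC11: tagaatcgcttATGCAAATaaggtgaagag
H2BC4: tttcatacctcATTTGCATagctctgccca
H2BC14: ttctactcctaATTTGCATaataacattta

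Searched on either strand in the same window, the TATA box letters TATAAA were found in 34 of 50 members (68%) and in 9.82% of all promoters. CCAAT was found in 43 (86%) against 35.9%. Some TATAAA matches lay on the opposite strand only, as at H2BC17, whose match was that of the facing gene H2AC17. All H1, H2A, H2B and H3 genes held CCAAT, whereas 4 of the 11 H4 genes did. Examples of the TATA box are H1-1 on the minus strand at chr6:26018029-26018058, H1-4 on the plus strand at chr6:26156516-26156545 and H3C11 on the minus strand at chr6:27840140-27840169, with the first T at -31, -29 and -33 from the start.
H1-1: gcagtcccacccTATAAAtaggctgcgttg
H1-4: agctccgccctaTATAAAcgggcgggcgca
H3C11: cgcgagggcagcTATAAAtaccgggatgat

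The nuclear receptor half-site AGGTCA was present in 7 members (14%) and in 11.3% of all promoters. It is shown for H3C6 on the plus strand at chr6:26225116-26225145, from -235 to -230, because H3C6 was the member with the most RORγ fragments. Of the 7, H3C6 was the single one with a RORγ region in either library. Its half-site lies outside both of these regions, which are chr6:26225310-26225663 with vehicle and chr6:26225257-26225862 with XY018. AGGTCA was not found within 100 bases of either RORγ summit there. The letters TCACNCCAC of the sterol regulatory element were found in 0 of 50 promoters and in 1.22% of all. These matches describe letters and are not evidence of binding.
H3C6: caatgtctttgcAGGTCAtggtctacgtga

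The deposited data are lists of regions called separately in each library. The vehicle and XY018 lists held 117441 and 69700 regions on the chromosomes compared for SREBP2, 167264 and 129954 for RORγ, and 95099 and 105371 for H3K27ac, and depth recovered from the values ran from 3.65 to 6.16 tags per kb. The SREBP2 and RORγ lists reached down to a −log10 p of 2.01 or under, so weak regions were included. The H3K27ac lists were part of longer ones, since peak numbers ran to 245055 and 241397, and a gene without an H3K27ac region is therefore one not listed. The number of fragments at a region's summit was recovered from its fold enrichment and p-value.

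Most of the histone genes carried H3K27ac and few carried either factor. A region of the H3K27ac vehicle list overlapped the gene, or the stretch from 1000 bp before to 100 bp after a transcript start, in 41 of 50 members, against 73% of all genes. With XY018 it was 38 members against 74.1%. SREBP2 was listed at 9 members with vehicle, where 82.4% of all genes had a region, and at 5 with XY018, where 75.4% did. RORγ was listed at 3 members with vehicle against 81.3%, and at 4 with XY018 against 79%. The members' share was thus far under that of all genes for both factors in all 4 factor libraries. Shares that count the gene itself, here and below, favour genes longer than most histone genes. For H3K27ac the order depended on where a region was counted. The members' share was above that of all genes when any overlap with the promoter stretch or gene counted, by little with XY018 (76% against 74.1%), and under it with the gene alone, at 31 of 50 members against 71.8% of genes with vehicle and 27 against 72.9% with XY018. With the summit itself inside the promoter stretch or gene it was 30 against 72.6% and 31 against 73.7%, and with a promoter of 250 bp before to 50 bp after the start, or the gene, 34 against 72.5% and 31 against 73.6%. Of the 41 acetylated members 33 (80.5%) had neither factor with vehicle, compared with 4.28% of all acetylated genes, and with XY018 it was 33 of 38 (86.8%) compared with 8.14%. The all-gene share was higher with the promoter stretch alone. There 33 of 38 acetylated members (86.8%) had neither factor with vehicle, compared with 11.2% of genes. With XY018 it was 33 of 36 (91.7%) compared with 18.1%.

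**Figure D1:**
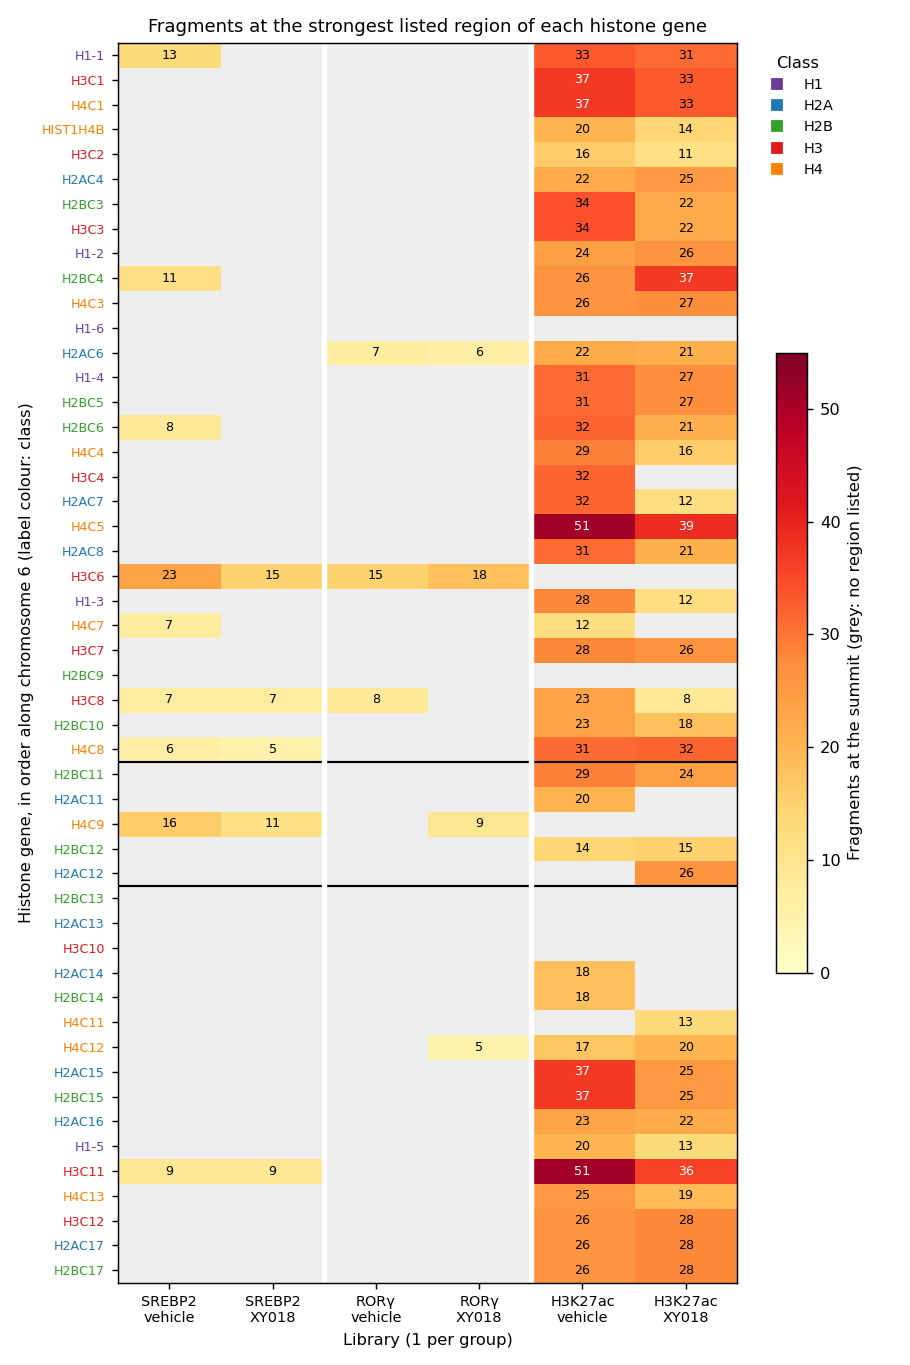
Fragments at the summit of the strongest listed region for each of the 50 histone genes (rows, in order along the chromosome, label colour by class, black lines between the 3 groups of genes) in each of the 6 libraries (columns), with grey where no region was listed. H3K27ac columns are filled for 41 and 38 genes, and the SREBP2 and RORγ columns for 3 to 9.

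With the promoter stretch alone, 7 members had SREBP2 with vehicle and 3 with XY018, against 70.6% and 62.7% of all genes. RORγ was at 2 and 3 member promoters against 62.6% and 61.5%, and H3K27ac at 38 and 36 against 66.8% and 68%. The distinction between promoter and gene matters here. Most members are short with 1 annotated start, and a longer gene has more places for a region, so shares that count the gene are not like for like. With the usual start only, SREBP2 was at 6 members with vehicle and 3 with XY018, against 63.8% and 55.4% of genes. RORγ was at 2 and 3 members against 53.3% and 52.0%. On the other side, some annotated histone transcripts run far past the coding exon. The model of H2BC4 covers 37610 bases and that of H2AC6 covers 14972.

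Base composition and acetylation level were compared, since both differ from those of other genes. Member promoters had a median GC content of 46.9% (quartiles 42.3 and 49.3) against 54.6% for all genes, and their promoter H3K27ac regions a median of 23.5 fragments against 60. Among the 310 other genes inside the members' quartiles for both measures, SREBP2 was at 54.2% and RORγ at 35.2% of promoters with vehicle, compared with 14% and 4% of members. All 310 have a promoter H3K27ac region with vehicle, and the 38 members that have one stood at 13.2% and 2.63%. With XY018 the same 310 genes gave 41.6% and 31.3%, compared with 6% and 6% of members and 5.26% and 2.63% of those 38. The 17 other genes of the same stretch of chromosome 6 were lower than the genome too, with SREBP2 at 5 promoters, RORγ at 0 and H3K27ac at 10 with vehicle. They include HFE and ENSG00000282988, which share regions with the members H2BC4 and H2AC7. Reads of 50 bases could be placed in the member promoters, where a median of 99.95% of such words occur once in the genome (lowest 69.5%). In the first 500 bases of the genes the median was 100%. The lowest values there were at H4C12 (36.7%), H4C11 (37.5%), H2AC13 and H2AC14 (43.5% each) and H2BC12 (49.1%). Promoters were lowest at H2BC14 (69.5%), H2BC13 (70.3%) and H2AC12 (76.8%). Regions listed at these genes, and the lack of one, are therefore uncertain.

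**Figure D2:**
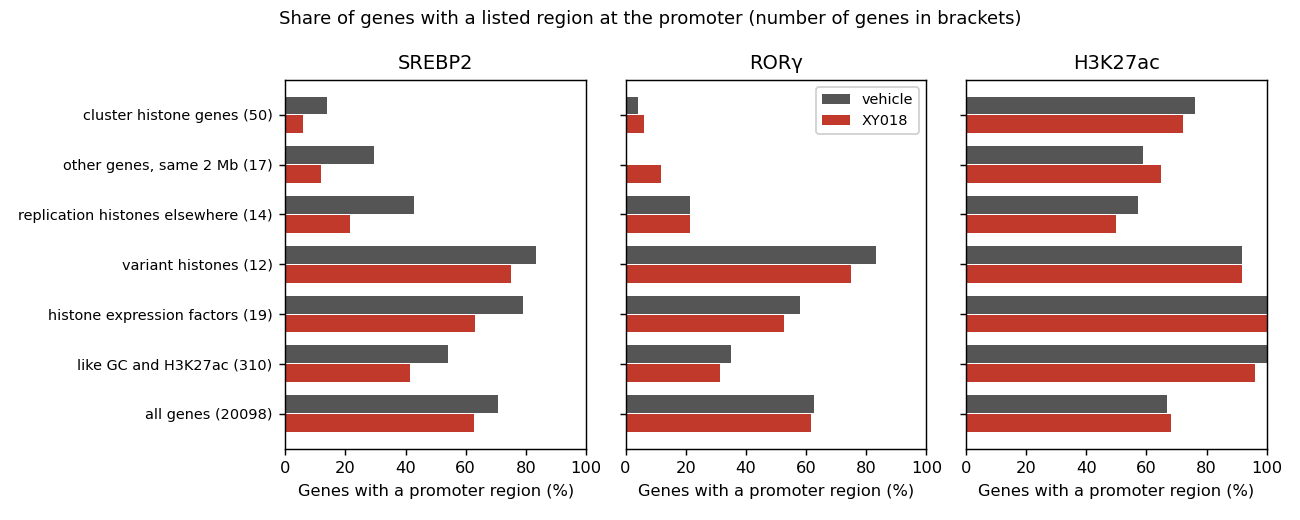
Share of genes with a listed promoter region (percent, horizontal axis) for the 50 cluster histone genes, 5 comparison sets and all genes, in the SREBP2, RORγ and H3K27ac libraries with vehicle (dark grey) and XY018 (red). Cluster histone genes stand at 14% and 6% for SREBP2, 4% and 6% for RORγ, and 76% and 72% for H3K27ac, while the set with like GC and H3K27ac is at 100% for vehicle H3K27ac by its construction.

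Histone genes outside the cluster were listed with the factors at higher shares. Replication-type genes elsewhere, mostly on chromosome 1, had SREBP2 at 6 of 14 promoters, RORγ at 3 and H3K27ac at 8 with vehicle. The replacement and variant histones had SREBP2 at 10 of 12, RORγ at 10 and H3K27ac at 11. H3-3A, which encodes the replacement histone H3.3, had 44 SREBP2 and 27 RORγ fragments with vehicle and 187 for H3K27ac, each more than at any member. Of the 19 genes for factors of histone expression, 15 had SREBP2, 11 RORγ and 19 H3K27ac at the promoter.

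Among those factors, SLBP, which binds the stem-loop of histone RNA, had 22 SREBP2 fragments with each treatment, 23 and 15 for RORγ, and 136 and 144 for H3K27ac, vehicle first. LSM10 and LSM11 belong to the small nuclear particle that cuts histone RNA. LSM10 had 26 and 13 fragments for SREBP2 and 10 and 5 for RORγ, and LSM11 had 30 and 17 for SREBP2 and 13 and 23 for RORγ. NPAT, the coactivator of the histone locus body, and CASP8AP2, another component of that body, had no SREBP2 or RORγ region at the promoter in any library and 11 and 19 vehicle H3K27ac fragments there. HINFP, an activator of H4 genes, had 7 SREBP2 fragments at the promoter with vehicle and 14 for H3K27ac.

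The H1 genes encode the linker histones that bind between nucleosomes. H1-1 (chr6:26017260-26018015) had 33 H3K27ac fragments with vehicle (95% interval 22.7 to 46.3) and 31 with XY018 (21.1 to 44). It was also the only H1 gene with a factor, 13 SREBP2 fragments with vehicle (6.92 to 22.2) with the summit at -107 bp from the start, and no SREBP2 region with XY018. H1-4 had 31 and 27 H3K27ac fragments and H1-2 had 24 and 26, so these 3 genes were nearly level between the treatments. H1-3 had 28 (18.6 to 40.5) and 12 (6.20 to 21), and H1-5 had 20 and 13, both lower with XY018. H1-6, the testis form of H1, had no region in any of the 6 libraries.

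The H2A and H2B genes encode the histones of the outer dimers of the nucleosome. H3K27ac was listed at 9 of 11 H2A and 10 of 12 H2B genes with vehicle and at 8 and 9 with XY018. H2AC15 and H2BC15 shared the strongest region of both classes, 37 fragments with vehicle (26.1 to 51.0), and the XY018 region overlapping it had 24. Their strongest XY018 region was another one, with 25. The lowest vehicle values were 18 at H2AC14, in a region shared with H2BC14, and 14 at H2BC12. Neither H2AC14 nor H2BC14 had a listed region with XY018. H2AC7 had 32 fragments with vehicle and 12 with XY018, and H2AC16 had 23 and 22 in its strongest regions. H2BC9, H2BC13 and H2AC13 had no region in any library, and neither did H3C10, an H3 gene.

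Factor regions at H2A and H2B genes were few, and those of H2AC6, H2BC4 and H2BC6 lay far from the usual start. H2AC6 had 7 RORγ fragments with vehicle and 6 with XY018, at 2 different places 11218 and 8521 bp downstream of the start within its long model. H2BC4 had 11 SREBP2 fragments with vehicle only, at a place that also lies in the promoter stretch of HFE, a gene of iron uptake. H2BC6 had 8 SREBP2 fragments with vehicle only, with the summit at -11707 bp from the usual start, beside a second annotated one. No H2A or H2B gene had a factor region at the promoter that its classical histone transcript uses.

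H3 and H4 form the core tetramer, and they held the factor regions that sit in the histone gene itself. H3C6 had the most of both factors and no listed H3K27ac. Its SREBP2 region held 23 fragments with vehicle (14.6 to 34.5) and 15 with XY018 (8.40 to 24.7), and its RORγ region 15 with vehicle (8.40 to 24.7) and 18 with XY018 (10.7 to 28.4). Both factors thus had a region there in both treatments, and each factor's interval with vehicle overlapped that with XY018. The summits were 151, 166, 106 and 175 bp after the start, in the coding exon.

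H4C9 had 16 SREBP2 fragments with vehicle (9.15 to 26) and 11 with XY018, and 9 RORγ fragments with XY018 where none was listed with vehicle. It too had no listed H3K27ac. H3C8 had 7 SREBP2 fragments with each treatment and 8 RORγ fragments with vehicle only, and H3C11 had 9 SREBP2 fragments with each. At these 4 genes all 12 summits lay 81 to 180 bp after the start, within the coding exon. The letters under the vehicle SREBP2 summits are given to show what that place is, with no motif marked, for H3C6 at chr6:26225499-26225528 (plus strand), H4C9 at chr6:27107169-27107198 (plus strand), H3C8 at chr6:26271506-26271535 (minus strand) and H3C11 at chr6:27839954-27839983 (minus strand). The summit base with 100 bases to either side had a GC content of 63.7%, 61.7%, 65.2% and 68.2%, higher than the median member promoter. Within 100 bases of these 4 vehicle summits neither AGGTCA nor TCACNCCAC was found. At H4C9 AGGTCA was found within 100 bases of the summits with XY018, those of SREBP2 at 180 bp and of RORγ at 173 bp after the start.
H3C6: ccatcgctaccgccctggcaccgtggctct
H4C9: cagggtatcaccaagccagccattcggcgc
H3C8: tcggaaaagcgcgccggccaccggcggcgt
H3C11: gaagccccaccgctaccgccccggcaccgt

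The other factor regions at H4 genes were weak. H4C7 had 7 SREBP2 fragments with vehicle only, H4C8 had 6 with vehicle and 5 with XY018 at different places of its 8030-base model, and H4C12 had 5 RORγ fragments with XY018 only. For H3K27ac, H4C5 and H3C11 were highest of all members, with 51 fragments each with vehicle (38.0 to 67.1) and 39 and 36 with XY018. Lowest in their classes with vehicle were H3C2 at 16 and H4C7 at 12. Across the cluster 11 members had a factor region in any of the 4 factor libraries and 39 had none. In the single libraries 75.4% to 82.4% of all genes had one.

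H3K27ac lay to the sides of the histone genes' starts and not over them. At the start itself 6 of 50 members (12%) were inside a vehicle region, compared with 51.9% of all genes, and 8 (16%) compared with 52.9% with XY018. At 850 bp upstream 32 members (64%) were inside one with vehicle and 25 (50%) with XY018, where all genes stood at 19.5% and 21.2%. At 600 bp downstream members were at 62% and 42% and all genes at 41.0% and 42.6%. The strongest promoter region had its summit at a median of 825.5 bp from the start with vehicle and 685 bp with XY018, compared with 272 and 275 bp over all genes, so the gap was present in both libraries. H3C11 was an exception, with summits 150 and 168 bp after its start. The SREBP2 and RORγ summits at H3C6, H4C9, H3C8 and H3C11 did not follow this pattern, since they lay in the coding exons. Factor summits at the other members lay elsewhere, as at -107 bp for H1-1, -473 bp for H4C7 and -1045 bp for H4C12.

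**Figure D3:**
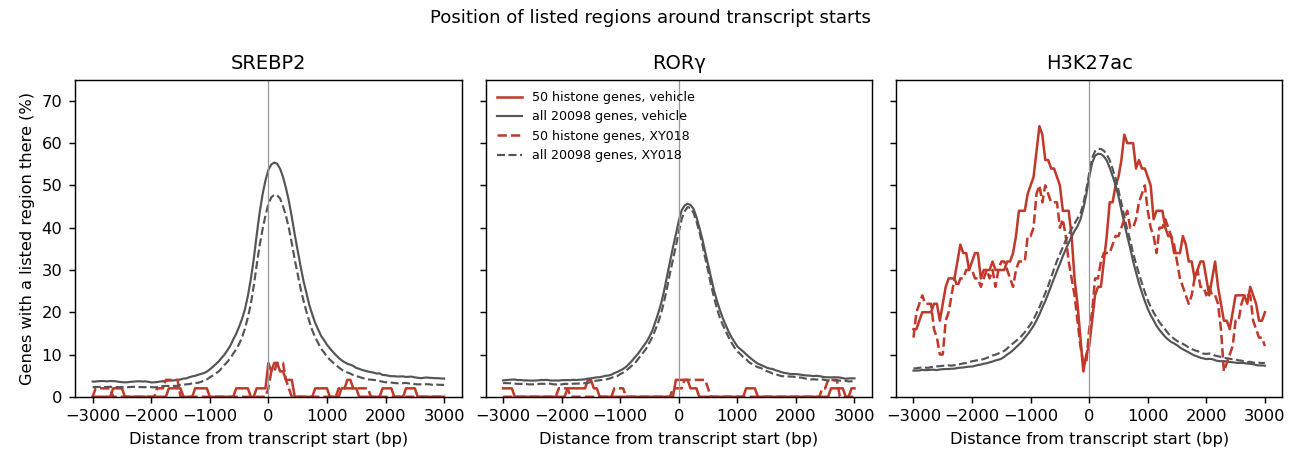
Share of genes inside a listed region (percent) against distance from the transcript start (bp) for the 50 histone genes (red) and all 20098 genes (grey), with vehicle (solid) and XY018 (dashed). All genes peak just after the start for each antibody, whereas the histone genes dip to 12% for vehicle H3K27ac at the start between shoulders of 64% at -850 and 62% at 600, and stay at or under 8% for SREBP2.

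Between treatments, H3K27ac at the histone genes did not share the shift seen in the rest of the genome. Summit fragments of overlapping regions were divided by the genome-wide background of each library, and the ratio of XY018 to vehicle was taken for 36 members in 30 distinct pairs of regions. The median ratio was 0.954 with a range from 0.381 to 1.69, and 23 of 36 members were under 1, compared with a median of 1.27 over 14044 genes, of which 20.1% were under 1. Past a fold of 1.5, 4 members were lower and 1 higher, where all genes gave 3.1% lower and 21.8% higher. Unscaled fragments gave 0.871 and 1.16 in place of 0.954 and 1.27, and the deposited folds 0.988 for the members.

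The lowest ratios were at H3C8, with 23 and 8 fragments and a ratio of 0.381 (0.147 to 0.883), at H2AC7 with 0.411 (0.193 to 0.819) and at H1-3 with 0.470 (0.217 to 0.954). These 3 intervals lay under 1, and no member's interval lay above 1. Of the 14044 genes, 252 had an interval under 1 and 4880 one above. The members' intervals are wider, since their vehicle median was 28 fragments against 61. The H3C8 value is uncertain in addition because its vehicle region reaches H2BC10, for which another pair gave 0.986. The H2AC7 value is uncertain too. ENSG00000282988, annotated in the same stretch, has the same promoter GC content and the same shares of unique words as H2AC7. Both thus appear to start at the same place. Its promoter had the same 32 vehicle and 12 XY018 fragments. For its own ratio the 32 were paired with 22, in an XY018 region not counted for H2AC7 (ratio 0.753). By the deposited folds the ratios were 0.312 at H3C8, 0.650 at H2AC7 and 0.723 at H1-3. The highest ratio, 1.69 (0.984 to 2.95), was that of H2BC4, with 24 and 37 fragments at the HFE promoter inside the long H2BC4 model, and the next was 1.42 at H2AC16 with 17 and 22. By class the median was 0.954 for H1, 0.996 for H2A, 0.954 for H2B, 0.773 for H3 and 0.908 for H4, and by group of genes along the chromosome 0.954, 1.04 and 1.01. With promoter regions alone the median fell to 0.838 over 31 members.

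**Figure D4:**
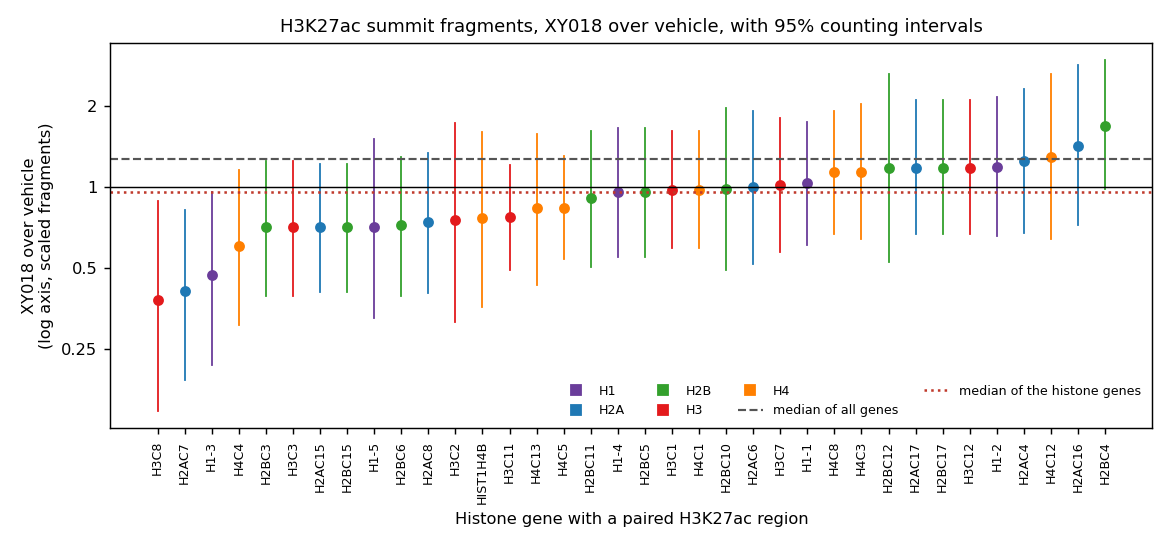
Ratio of H3K27ac summit fragments with XY018 to those with vehicle (log axis, scaled by genome-wide background) for the 36 histone genes with overlapping regions, in order of the ratio and coloured by class, with 95% counting intervals as bars. Points run from 0.381 at H3C8 to 1.69 at H2BC4 and their median of 0.954 (dotted) lies under the all-gene median of 1.27 (dashed), and most intervals include 1.

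Genes with H3K27ac as low as that of the members were more often under a ratio of 1 than all genes, at 31.1% of 1809 genes. Of the 310 genes with like GC content and H3K27ac fragments, 306 had a ratio, with a median of 1.10 and 39.9% under 1. Genes of like GC alone had a median of 1.18. The 12 other genes of the same stretch of chromosome 6 had a median of 1.22, with 4 lower, and the 8 replication-type histone genes elsewhere 0.932, with 4 lower. Those 12 include HFE and ENSG00000282988, whose regions were also counted for H2BC4 and H2AC7, so they are not separate from the members. The variant histones were at 1.32 over 11 genes. What part of the members' lower ratio goes with their low fragment numbers was not tested.

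For the factors few pairs existed. SREBP2 had 4 paired members, all in the coding exon, with ratios of 0.552 at H3C6 (0.268 to 1.10), 0.582 at H4C9 (0.244 to 1.34) and 0.846 at both H3C8 and H3C11, and a median of 0.714. Past the fold of 1.5 there were 2 lower, where all genes gave 60.5%, and 0 higher, where they gave 0.0281%. Over all genes the median was 0.628 and 97.9% were under 1, so a ratio under 1 at 4 of 4 members is near the background. RORγ had 1 pair, H3C6, with a ratio of 1.33 (0.632 to 2.83), against a median of 0.983 over all genes, of which 52.2% were under 1. That is short of the fold of 1.5, which 8.02% of genes passed downward and 7.38% upward. Its deposited folds were 4.31 and 10.6, a ratio of 2.47, and the local background of that summit was 2.71 fragments with vehicle and 0.789 with XY018.

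Seen as presence or absence, 4 of the 9 members with vehicle SREBP2 overlapped a region of the XY018 list, compared with 85.9% of genes, and 1 of 3 for RORγ compared with 85.1%. The 5 SREBP2 members that did not were H1-1, H2BC4, H2BC6, H4C7 and H4C8, with 13, 11, 8, 7 and 6 fragments. These shares are not like for like, because 1 overlapping region was enough for a gene and a longer gene can hold several. The 9 SREBP2 members held 9 distinct vehicle regions of 6 to 23 fragments, and the 3 RORγ members held 3. A lower share at members is therefore not read as a greater loss. For H3K27ac 37 of 41 overlapped, compared with 95.8%, and the 4 that did not were H4C7, H2AC11, H2AC14 and H2BC14. H2AC12 and H4C11 had H3K27ac with XY018 only, at 26 and 13 fragments.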

How the data were processed

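The 6 immunoprecipitated libraries were each represented by 1 list of regions. Per the methods of the study, single-end reads of 50 bases were aligned to hg19 with BWA, tags were filtered for unique placement and duplicates, and regions were called with MACS. The submitters' processing notes name Bowtie2, MACS2 2.1.0 and bedtools, and the conflict over the aligner was not resolved. The deposited values were the fold enrichment at the summit, −log10 p and −log10 q as the authors' caller wrote them, and a display score that was not used. The deposited positions of regions and summits were read as listed.

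From fold and −log10 p the whole number of fragments and the local background at each summit were recovered under the Poisson model of MACS (tolerance 0.005 in −log10 p, met by all regions but 1), which was tested on simulated data. The commonest background in a list stood for the whole genome, and the narrowest region for the fragment length. No region ended beyond its chromosome in GRCh37. Genes came from GENCODE 44 lifted to GRCh37. A region counted for a gene with 1 bp of overlap. Fragments have exact Poisson and ratios exact conditional binomial 95% intervals. Reads are not independent molecules, so intervals cover counting error only. A ratio used the overlapping pair with the most summed fragments. Python 3.11.15, numpy 2.4.6, pandas 2.3.3 and scipy 1.17.1 were used.

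Members and lists were chosen with earlier results of these data known. Named were all H1 genes, the members with most and fewest vehicle fragments in each other class, the 2 highest and 2 lowest ratios with at least 10 fragments, members with a factor in 1 treatment only or with no region, and NPAT, CASP8AP2, SLBP, LSM10, LSM11 and HINFP. H2AC11, H2AC12, H2BC10, H4C11, H3-3A and HFE were named after their values were seen. The listed genes H2AC18, H2BC19, H2AW and H2BU1 were not analysed here.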

Additional observations from a re-analysis of the deposited data

How the results depend on the processing

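Of 74 alternatives 64 left the value the same and 10 moved it. A count was the same when it stayed within 1.5 times of its main value. A ratio was the same when it stayed within the counting interval of its main value, 0.861 to 1.06 for H3K27ac. That interval was 0.466 to 1.09 for SREBP2, with 4 members, and 0.632 to 2.83 for RORγ, with 1. For RORγ a ratio of 2.47 by deposited folds thus counted as the same as 1.33. The tally therefore says little about the factor ratios. No alternative turned a ratio to the other side of 1. With q of at most 1e-05, SREBP2 was at 3 members with vehicle and 1 with XY018, and RORγ at 1 and 2. Within 3 kb of the usual start, SREBP2 was at 14 and 8 members and RORγ at 7 with vehicle. SREBP2 with XY018 was at 3 members with the promoter only and also 3 with the usual start only. The members' H3K27ac share turned from above to under that of all genes in both libraries with the gene alone, the summit inside, or the shorter promoter, and with q of at most 1e-05 the XY018 count of 36 stood at the 72.1% of all genes. The H3K27ac ratio was 0.838 with promoters only. The cause was not tested beyond the fewer or wider stretches these settings use. Another scaling moved the all-gene SREBP2 median from 0.628 to 0.695 (tags per kb) or 0.741 (unscaled). The settings for the usual start, for 3 kb and for ratios with promoters only or without long gene models, 17 values, were chosen after seeing the data. No paired analysis was possible because each group had 1 library and no test was run, and for the same reason no library could be left out. Factor regions at members held 5 to 23 fragments, and the intervals of all 5 factor ratios included 1. Over all genes the SREBP2 interval lay under 1 at 5217 of 14211 and above it at 0. The RORγ interval lay under 1 at 170 of 13889 and above it at 167.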

Other observations

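The H3K27ac regions were crowded where the histone genes lie. The 3 groups of genes with 1 kb to either side held 266, 423 and 305 summits per Mb with vehicle, compared with 31.3 over the genome and 26.3 over chromosome 6, and in the same order 69, 7 and 27 summits were counted with XY018 after 72, 10 and 27 with vehicle. SREBP2 summits there stood at 40.6, 84.5 and 11.3 per Mb with vehicle, compared with 38.7 over the genome, from 11, 2 and 1 summits. RORγ stood at 25.9, 0 and 33.9 per Mb, compared with 55.1.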
